A study of Mus musculus with 48 samples.

Results

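The genes described here are 41 neighbours of the deleted segment in mice that model the human 16p11.2 deletion. They lie on mouse chromosome 7 on both sides of the deleted stretch, but outside it. The list follows position but was drawn up with earlier results of these data known, and it leaves genes out. Rgs10, Tial1 and Bag3, for example, lie between the members Tgfb1i1 and Inpp5f. The p-values of single members are therefore not those of genes picked by position alone. All 41 were found among the 47069 gene rows of the count table. Against the GENCODE annotation of GRCm38, 14 lie proximal to the deletion (towards the centromere) and 27 distal to it. The interval was taken from the start of Slx1b to the end of Mylpf (chr7:126689468-127214298, 524.8 kb), since the labels do not give the breakpoints, and it holds 55 annotated genes. A further 108 annotated genes within 1.5 Mb of the interval served as other neighbours. Sult1a1 was the member closest to the interval (13 kb) and Inpp5f the farthest (1400 kb).

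A deletion removes 1 copy of the genes inside it and leaves both copies of its neighbours in place. The neighbours can still be affected where the deletion takes away or moves regulatory DNA, changes chromosome folding, or is inherited with linked alleles of another strain. The proximal members from Spns1 to Sh2b1, Tufm and Atxn2l are counterparts of genes in the human distal 16p11.2 region, which has recurrent deletions of its own, and the distal members include chromatin regulators such as Setd1a, Srcap and Kat8.

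RNA was measured in cortex, striatum and cerebellum of 16 mice of strain background C57BL/6N:129Sv, 8 labelled 16p11.2 Deletion and 8 labelled WT. Each genotype had 4 males and 4 females, and each animal gave 1 library per tissue, so the 48 libraries form 6 groups of 8. Sex coincided with the date that the labels record in the age field, so the pair cannot be told apart, and the age of the animals is not given in the sources used here. Libraries were made with a TruSeq stranded mRNA kit and held 29244745 to 60751792 gene counts (median 32232112). The labels do not state zygosity. In the deletion libraries every tested gene of the interval had a negative log2 fold change, with medians of -1.08 in cortex (30 genes), -1.05 in striatum (34 genes) and -1.02 in cerebellum (33 genes), beside the -1 that the loss of 1 of 2 copies gives. Of these, 20, 20 and 21 passed an adjusted p of 0.05 (edgeR quasi-likelihood test). Regional markers were present, but the dissections varied: the summed level of 7 striatal markers reached 1970 CPM (counts scaled to library size; median 906) in wild-type cortex and 3410 (median 1640) in deletion cortex. In striatum libraries, 6 cortical markers summed to at most 614 CPM in deletion animals but reached 1140 in wild type, where 3 libraries (W813, W814 and W815) had 796 to 1140. By mean log2 level, thalamic markers also exceeded striatal markers in 3 striatum libraries, D810, W813 and, by a narrow margin, W805 (4.49 against 4.486).

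The upstream sequences of 5 members are shown as examples. Sult1a1 and Zfp747 are among the members nearest to the interval. Eif3c was the most strongly expressed in forebrain, and Ctf1 and Inpp5f had the smallest p-values. Each is the stretch of RefSeq's GRCm38.p6 promoter table that lies before the annotated gene, 5′ to 3′ on the gene's strand. Capitals mark GC boxes (GGGCGG, or CCGCCC on the other strand), the binding motif of Sp1-like factors.
Sult1a1 (chr7:126676433-126676668, minus strand): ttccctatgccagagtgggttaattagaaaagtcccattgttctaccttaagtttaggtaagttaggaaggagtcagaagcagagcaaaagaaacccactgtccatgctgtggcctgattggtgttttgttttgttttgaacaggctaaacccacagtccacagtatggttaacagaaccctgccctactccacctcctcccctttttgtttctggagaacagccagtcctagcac
Zfp747 (chr7:127376051-127376300, minus strand): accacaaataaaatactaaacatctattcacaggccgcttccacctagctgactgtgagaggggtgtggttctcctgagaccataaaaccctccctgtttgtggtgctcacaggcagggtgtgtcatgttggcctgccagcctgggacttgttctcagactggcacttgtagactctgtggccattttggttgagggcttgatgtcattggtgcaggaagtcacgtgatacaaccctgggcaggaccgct
Eif3c (chr7:126566412-126566616, minus strand): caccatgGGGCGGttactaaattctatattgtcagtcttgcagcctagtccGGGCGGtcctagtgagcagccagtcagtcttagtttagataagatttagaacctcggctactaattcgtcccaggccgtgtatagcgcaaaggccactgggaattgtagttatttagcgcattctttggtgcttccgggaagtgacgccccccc
Ctf1 (chr7:127712453-127712702, plus strand): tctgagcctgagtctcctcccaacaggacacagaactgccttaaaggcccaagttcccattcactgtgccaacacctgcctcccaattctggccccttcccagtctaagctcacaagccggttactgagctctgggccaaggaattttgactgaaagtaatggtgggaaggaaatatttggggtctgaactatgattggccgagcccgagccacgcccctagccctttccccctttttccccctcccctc
Inpp5f (chr7:128611115-128611327, plus strand): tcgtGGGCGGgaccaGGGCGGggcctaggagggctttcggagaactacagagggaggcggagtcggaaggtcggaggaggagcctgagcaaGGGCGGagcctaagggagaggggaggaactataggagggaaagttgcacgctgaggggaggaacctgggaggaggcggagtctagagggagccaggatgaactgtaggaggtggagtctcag
The Inpp5f stretch held 3 GC boxes and 10 CpG dinucleotides, and the Eif3c stretch held 2 GC boxes and 10 CpGs. The Sult1a1 stretch had neither a GC box nor a CpG, and the Zfp747 and Ctf1 stretches had no GC box and 3 and 4 CpGs. RefSeq windows were matched for 38 of the 41 members (47 windows, since some genes have several starts). A GC box occurred in the 250 bases before the start in 25 of those 47 windows (53.2%), against 32.7% of all 32851 windows in the table. The median number of CpGs was 11 in the members' windows and 6 in all windows. All windows belong to 27025 genes taken without regard to expression in brain, and genes with several starts count more than once. Whether the difference is particular to the neighbours was not tested.

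No flanking member passed the adjusted threshold in any tissue. In cortex 0 of 40 tested members were called at an adjusted p under 0.05 (edgeR), where 0.13% of all tested genes were. In striatum 0 of 41 were called (background 0.128%), in cerebellum 0 of 41 (background 0.138%), and in the counts summed over the 3 tissues of each animal 0 of 41 (background 0.138%). At an unadjusted p under 0.05 there were 2 members in cortex (background 2.03%), 3 in striatum (3.32%), 2 in cerebellum (2.08%) and 3 in the sum (3.27%). These were Inpp5f, Ctf1 and Setd1a throughout. DESeq2 also called 0 members in each of the 4 comparisons, and its share over all genes is not given here.

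Loss of expression by a whole copy, as inside the interval, was outside the 95% interval for most members. The interval of the log2 fold change lay wholly above -1 for 38 of 40 members in cortex (94.5% of all tested genes), 38 of 41 in striatum (89.7%), 39 of 41 in cerebellum (93.5%) and 41 of 41 in the sum (93.2%). Among the tested genes inside the deletion this count was 0 in every comparison. The intervals that reached -1 belonged to 4 members. Atp2a1, the calcium pump of fast skeletal muscle, had a cortical log2 fold change of 0.10 with an interval from -1.19 to 1.40, and in striatum 0.03 with an interval from -1.72 to 1.77. Nupr1 reached down to -1.11 in cortex and striatum, Srcap to -1.28 in striatum and -1.27 in cerebellum, and Sult1a1 to -1.06 in cerebellum.

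**Figure D1:**
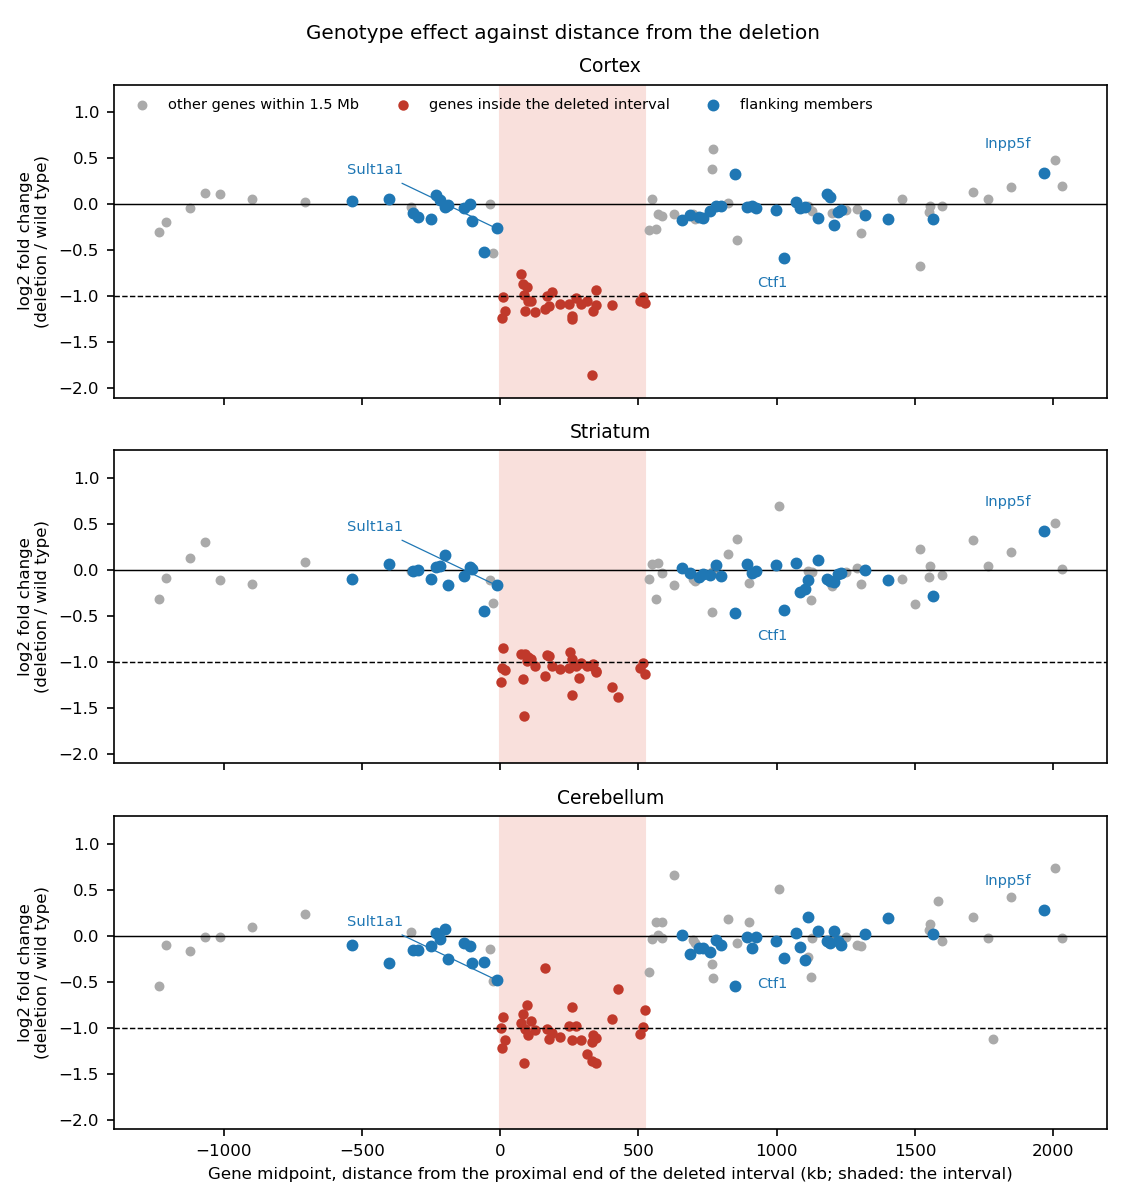
Log2 fold change (deletion over wild type, 8 libraries each) of genes on chromosome 7 against the distance of the gene's midpoint from the proximal end of the deleted interval, in kb, in 3 tissues. Genes inside the shaded interval lie near the dashed line at -1, and the flanking members on both sides lie near 0.

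The shifts of the members were small and more often negative than positive. Their median log2 fold change was -0.05 in cortex, -0.039 in striatum, -0.095 in cerebellum and -0.058 in the sum, beside medians of 0.004, -0.006, -0.005 and -0.001 over all tested genes outside the interval. Values were below 0 for 31 of 40 members in cortex, 27 of 41 in striatum, 30 of 41 in cerebellum and 33 of 41 in the sum. Over all genes outside the interval, 8258 of 16847 were below 0 in cortex, 8876 of 17164 in striatum, 8558 of 16639 in cerebellum and 9843 of 19580 in the sum. Other neighbours within 1.5 Mb leaned the same way, with 25 of 39, 26 of 42, 26 of 42 and 34 of 51 below 0. Their medians were -0.029, -0.027, -0.024 and -0.031. The 3 tissues come from the same animals and are not independent of each other. The negative split in cortex was not kept when the transcript length slope of each library, described below, entered the fit: 21 of 40 members were then below 0, with a median of -0.009. In the other comparisons the split was 28, 32 and 32 of 41.

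With both sides together, the medians by distance were below 0 in each tissue up to 1 Mb and above 0 from 1 to 2 Mb. Over these windows they rose steadily in cerebellum, but not in cortex or striatum. Neither side alone rose steadily in cerebellum. Among the members, the Spearman correlation of log2 fold change with distance was 0.54 proximally and 0.01 distally in cortex. It was 0.29 and -0.12 in striatum, 0.28 and 0.53 in cerebellum, and 0.31 and 0.17 in the sum. Within 0.25 Mb on either side, members and other neighbours together had median log2 fold changes of -0.11 in cortex (28 genes, 23 below 0), -0.06 in striatum (28 genes, 19 below 0) and -0.11 in cerebellum (29 genes, 22 below 0). From 0.25 to 0.5 Mb the medians were -0.03, -0.01 and -0.09, and from 0.5 to 1 Mb they were -0.06, -0.10 and -0.03. From 1 to 2 Mb they were 0.06, 0.05 and 0.02, and from 2 to 5 Mb 0.00, -0.04 (31 of 45 genes below 0) and -0.04. Beyond 5 Mb they were -0.01, -0.01 and -0.02 over 1112 to 1142 genes. The sides differed: within 0.25 Mb the proximal medians were -0.035, -0.081 and -0.125 (12 genes) and the distal ones -0.111, -0.045 and -0.05 (16 or 17 genes). In cerebellum the next proximal window was lower still, at -0.156 (5 genes), and the distal windows up to 1 Mb lay between -0.057 and -0.05. From 0.5 to 1 Mb the proximal medians were 0.057, -0.105 and 0.1 (3 genes). From 1 to 2 Mb the proximal medians were -0.116, 0.022 and -0.13 (4 genes). The distal ones there were 0.129, 0.046 and 0.091 (11 or 13 genes), so the sign change was not shared by both sides. Neighbouring genes share animals and linkage, so these are descriptions without a test. None of the chromosome 7 genes up to 5 Mb outside the interval was called. Beyond 5 Mb, 1 proximal gene was called in cortex, 1 in striatum, 1 in cerebellum and 1 in the sum.

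The 4 members nearest on the proximal side were Sult1a1, Nupr1, Apobr and Cln3. Sult1a1, a sulfotransferase that conjugates phenols, was measured at 5.44, 9.63 and 15.9 CPM (lowest, median and highest) in deletion cortex and 7.99, 12.3 and 16.5 in wild type. In striatum the values were 5.77, 8.57 and 11.7 against 6.22, 9.9 and 14, and in cerebellum 4.34, 8.97 and 13.8 against 6.49, 10.8 and 22.3. The groups overlapped in every tissue. The Sult1a1 log2 fold changes of -0.26 ± 0.20 (SE), -0.17 ± 0.13 and -0.48 ± 0.27 had unadjusted edgeR p-values of 0.194, 0.207 and 0.0954 (adjusted p = 0.965, 1 and 1). Sult1a1 overlaps Sgf29 on the opposite strand, and the strand setting of the counting is not given in the sources used here, so their reads may not be fully separated. Sgf29, a subunit of histone acetyltransferase complexes, is not among the members and was singled out after its values were seen. It had log2 fold changes of -0.53, -0.36 and -0.49 with unadjusted edgeR p-values of 0.00537, 0.0305 and 0.00477 (adjusted p = 0.965, 1 and 1). Such values were not confined to the proximal edge. Kdm8, 1230 kb proximal, had -0.306, -0.319 and -0.551, and Sept1, 0.149 kb distal, had -0.282, -0.095 and -0.398. Neither passed. Of all other neighbours tested, 14 of 39, 16 of 42 and 16 of 42 were above 0.

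Nupr1, a small stress-induced chromatin protein, ranged from 4.88 to 16 CPM (median 8.5) in the deletion cortices, and wild-type cortices ranged from 6.84 to 21.1 (median 14). Its log2 fold changes were -0.52 ± 0.28 in cortex, -0.45 ± 0.31 in striatum and -0.29 ± 0.31 in cerebellum (edgeR, adjusted p = 0.965, 1 and 1), with overlapping groups in each. Apobr, a lipoprotein receptor of macrophages, had values of -0.19, 0.01 and -0.29 in cortex, striatum and cerebellum, at 0.55 to 2.23 CPM. Cln3, the lysosomal membrane protein mutated in juvenile Batten disease, had values of 0.00, 0.04 and -0.11. Apobr and Cln3 overlap on opposite strands.

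On the distal side the nearest tested members were 4 zinc finger genes, Zfp768, Zfp747, Zfp764 and Zfp688, at 128 to 205 kb. Zfp747 ranged from 4.19 to 5.79 CPM in the deletion cortices against 5.11 to 6.17 in wild type, with a log2 fold change of -0.11 ± 0.09. Its values in striatum and cerebellum were -0.03 ± 0.13 and -0.19 ± 0.15. Zfp764 had -0.14, -0.08 and -0.13, Zfp768 had -0.17, 0.02 and 0.01, and Zfp688 had -0.15, -0.04 and -0.14. None passed, and the lowest unadjusted edgeR p-value was 0.165 (Zfp768 in cortex).

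**Figure D2:**
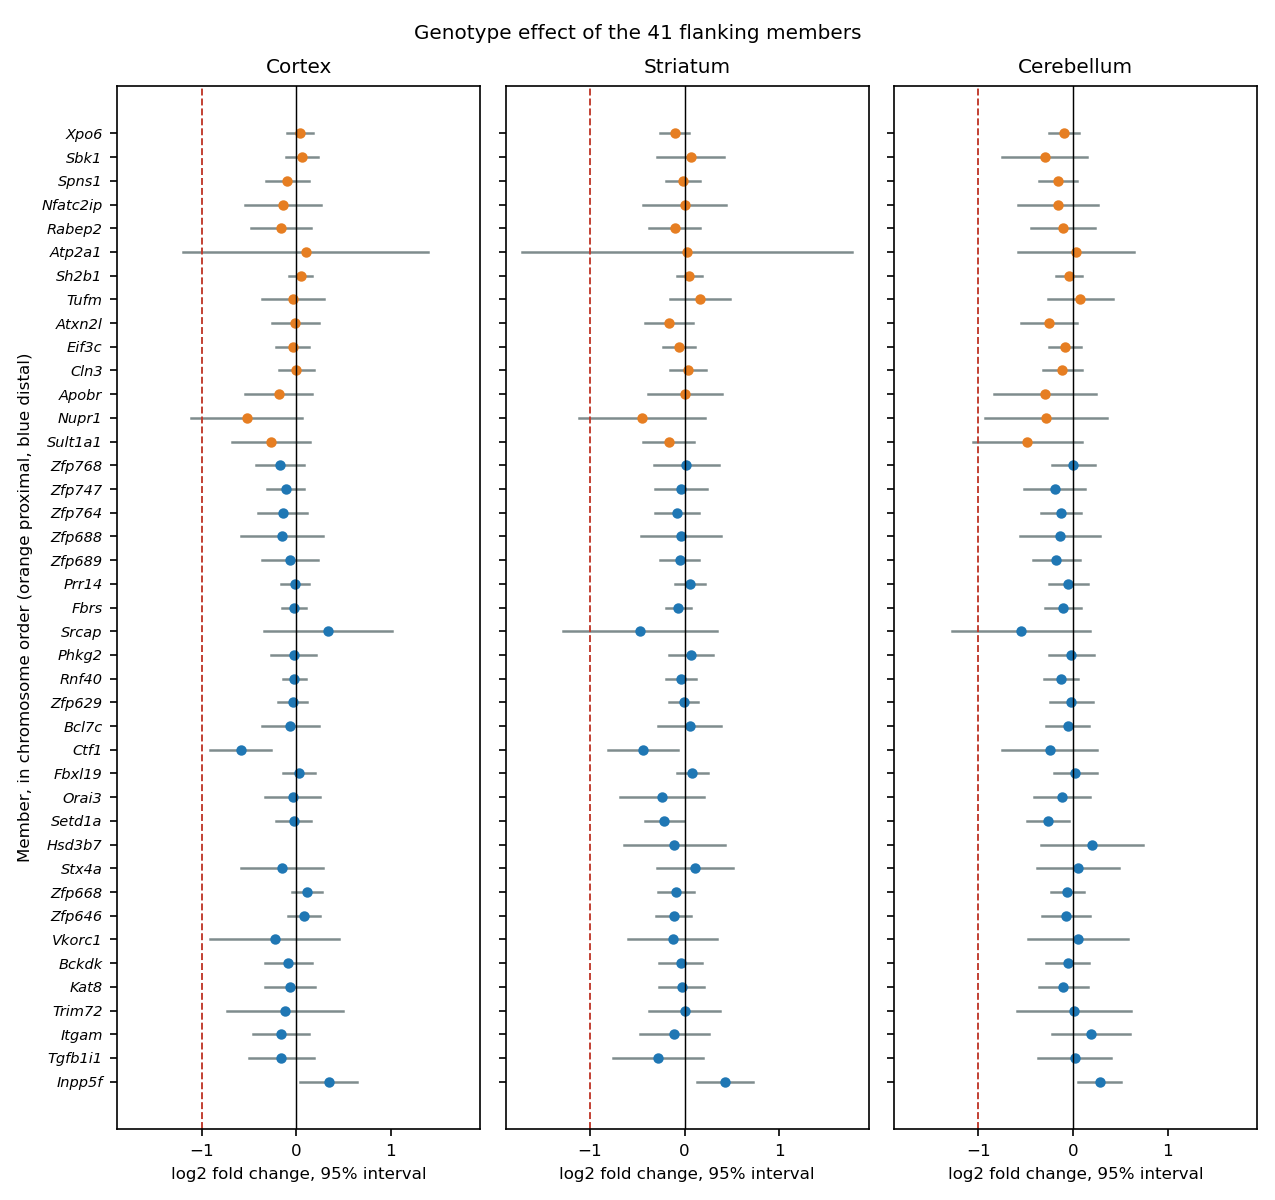
Log2 fold change (deletion over wild type) with its 95% interval for each member in chromosome order, in cortex, striatum and cerebellum (8 against 8 libraries; Hsd3b7 was not tested in cortex). Orange marks the proximal and blue the distal side, and the dashed line is at -1. Most intervals cover 0 and stay above -1, and Inpp5f is to the right of 0 in the 3 panels.

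Inpp5f was the member with the most regular shift, and it was upward. It encodes Sac2, a phosphatase that removes the 4-phosphate from phosphoinositides on endosomes, and its locus carries an imprinted transcript in mouse brain. In cortex its level was 96.7, 121 and 157 CPM (lowest, median, highest) in deletion libraries and 64.7, 100 and 136 in wild type. In striatum it was 190, 201 and 263 against 107, 156 and 210. In cerebellum it was 164, 196 and 235 against 135, 165 and 197. The groups overlapped in each tissue, with 2, 3 and 3 deletion libraries above every wild-type library and none below.

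The Inpp5f log2 fold change was 0.34 ± 0.14 in cortex, 0.43 ± 0.14 in striatum and 0.28 ± 0.10 in cerebellum. Unadjusted edgeR p-values were 0.0268, 0.00707 and 0.0167, and the adjusted values were 0.965, 1 and 1. In the summed counts the deletion animals ranged from 160 to 216 CPM and the wild-type animals from 108 to 179, with all 8 deletion animals above the wild-type mean of 141. The summed log2 fold change was 0.37 ± 0.11 (95% interval 0.13 to 0.61), with an unadjusted edgeR p-value of 0.00456 (adjusted p = 1). Both sexes showed the difference: males averaged 117 CPM against 91.2 in cortex, 216 against 163 in striatum and 207 against 171 in cerebellum, and females 135 against 108, 214 against 157 and 196 against 161. With the level of striatal markers as a covariate, chosen after seeing the data, the cortical value was 0.26 with an unadjusted p-value of 0.0624, and the striatal value 0.38 with one of 0.0119. Without the 3 striatum libraries in which thalamic markers exceeded striatal ones the striatal value was 0.44 with an unadjusted p-value of 0.00437 (adjusted p = 1). Without W813, W814 and W815, a choice also made after seeing the data, it was 0.30 with an unadjusted p-value of 0.0603. In cortex, Inpp5f kept an unadjusted p-value under 0.05 in 11 of the 16 fits that left out 1 animal, and in striatum, cerebellum and the sum in all 16. The adjacent genes, which are not members and were singled out after their values were seen, were Bag3 at 1310 kb (0.19, 0.20 and 0.42 in cortex, striatum and cerebellum) and Mcmbp at 1480 kb (0.19, 0.01 and -0.03), with adjusted p-values of 0.965, 1 and 1 for each. Gm16044, a predicted gene on the same strand that overlaps Inpp5f, had values of 0.48, 0.51 and 0.73 with SEs of 0.58, 0.518 and 0.515, and how reads in the overlap were assigned is not stated.

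Inpp5f has 8323 bases of exon, and its level moved with a property of the libraries, their transcript length slope. For each library, each gene's log2 deviation from its mean over the libraries of the tissue was regressed on log2 exon length. The genes used were protein-coding, above a minimum average level, and neither members nor deleted. The slope is therefore relative to the other libraries. The slope covered -0.235 to 0.357 for deletion and -0.218 to 0.235 for wild-type libraries in cortex. In striatum it covered -0.245 to 0.255 and -0.328 to 0.3, and in cerebellum -0.27 to 0.371 and -0.236 to 0.401, with overlapping genotypes in each tissue. With this slope as a further covariate, chosen after seeing the data, Inpp5f had a log2 fold change of 0.30 ± 0.04 in cerebellum (edgeR, adjusted p = 0.00396) and 0.39 ± 0.04 in the sum (adjusted p = 0.000286). In striatum it was 0.50 ± 0.09 (adjusted p = 0.0508) and in cortex 0.28 ± 0.09 (adjusted p = 0.691). Inpp5f was then the member called in cerebellum and in the sum, and no member was called in cortex or striatum. These fits called 0.16% of all genes in cortex, 0.169% in striatum, 0.18% in cerebellum and 0.25% in the sum. They also raised the share of genes at an unadjusted p under 0.05 to 5.04%, 8.43%, 7.12% and 10.8%. Members at that level numbered 4 of 40, 5 of 41, 8 of 41 and 11 of 41.

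**Figure D3:**
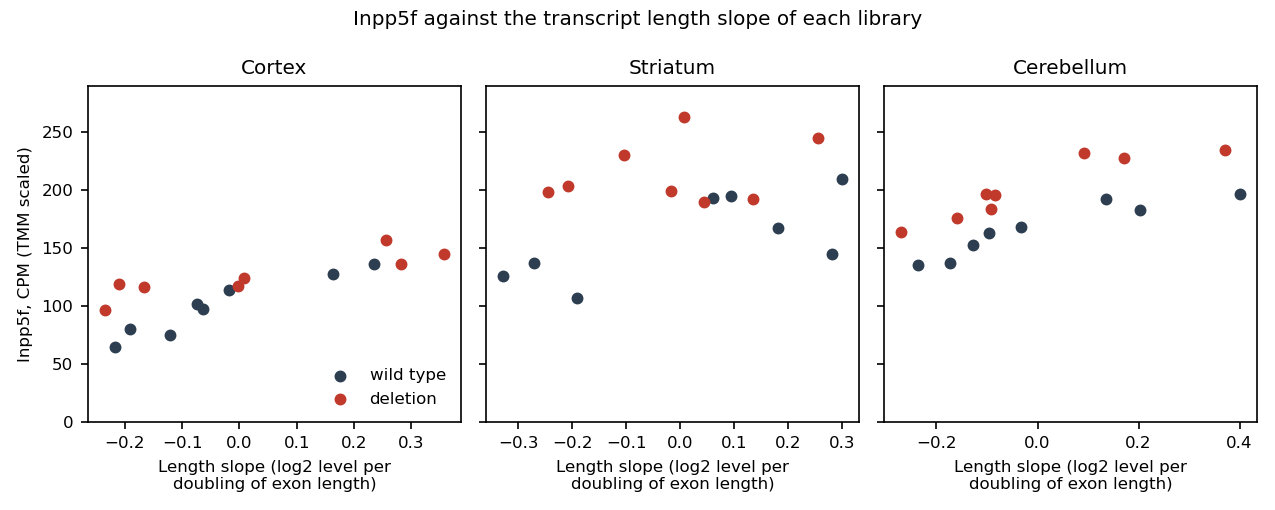
Inpp5f level (CPM, scaled by TMM factors) against the transcript length slope of each library. The slope is the log2 level relative to each gene's tissue mean, per doubling of exon length. Each tissue has 8 deletion (red) and 8 wild-type (dark) libraries. In cerebellum both groups climb with the slope and the deletion libraries sit above wild-type libraries of similar slope, from 164 to 235 CPM against 135 to 197.

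Ctf1, which encodes cardiotrophin-1, a cytokine of the interleukin-6 family that signals through gp130, was lowest relative to wild type in cortex. Its level there was 0.883, 1.24 and 1.5 CPM (lowest, median, highest) in deletion libraries and 1.36, 1.82 and 2.54 in wild type, and 7 of 8 deletion libraries lay below every wild-type library. In striatum it was 1.18, 1.40 and 1.94 against 1.37, 2 and 2.54, with 3 of 8 below. In cerebellum it was 1.37, 1.67 and 2.59 against 1.33, 1.85 and 4.57, with full overlap. The log2 fold changes were -0.59 ± 0.15, -0.44 ± 0.17 and -0.25 ± 0.23, with unadjusted edgeR p-values of 0.00151, 0.022 and 0.312 (adjusted p = 0.709, 1 and 1). These rest on 28 to 78 reads per library in cortex, 35 to 85 in striatum and 40 to 133 in cerebellum. The highest wild-type cerebellum value came from a library with 14300 CPM of choroid plexus markers, the most of its group. Without that animal (W813) the cerebellar value was -0.04 and the summed value -0.28. In males alone the cerebellar value was -0.03 and in females -0.46.

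Setd1a, a histone H3 lysine 4 methyltransferase whose human counterpart is a schizophrenia risk gene, was measured at 23.9, 27.5 and 31.9 CPM in deletion striatum against 26, 32.3 and 37.3 in wild type. In cerebellum it was 21.3, 29 and 31.1 against 27, 33.2 and 40.8. In cortex it was 21.5, 24.7 and 28.6 against 22.8, 24.4 and 29.3, so the medians were close. The log2 fold changes were -0.21 ± 0.10, -0.27 ± 0.10 and -0.03 ± 0.09 in the same order, with unadjusted edgeR p-values of 0.0401, 0.0206 and 0.764 (adjusted p = 1, 1 and 0.969). The striatal value kept an unadjusted p-value under 0.05 in 4 of the 16 fits that left out 1 animal (D812, W806, W813 or W814), and had one of 0.0851 without the filter on low counts. In the sum it was -0.16 ± 0.06 with an unadjusted p-value of 0.0113 (adjusted p = 1), and 6 of 8 deletion animals lay below every wild-type animal. Setd1a overlaps the antisense gene 9430064I24Rik, which is not a member and had values of -0.02, -0.01 and -0.23 in cortex, striatum and cerebellum.

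**Figure D4:**
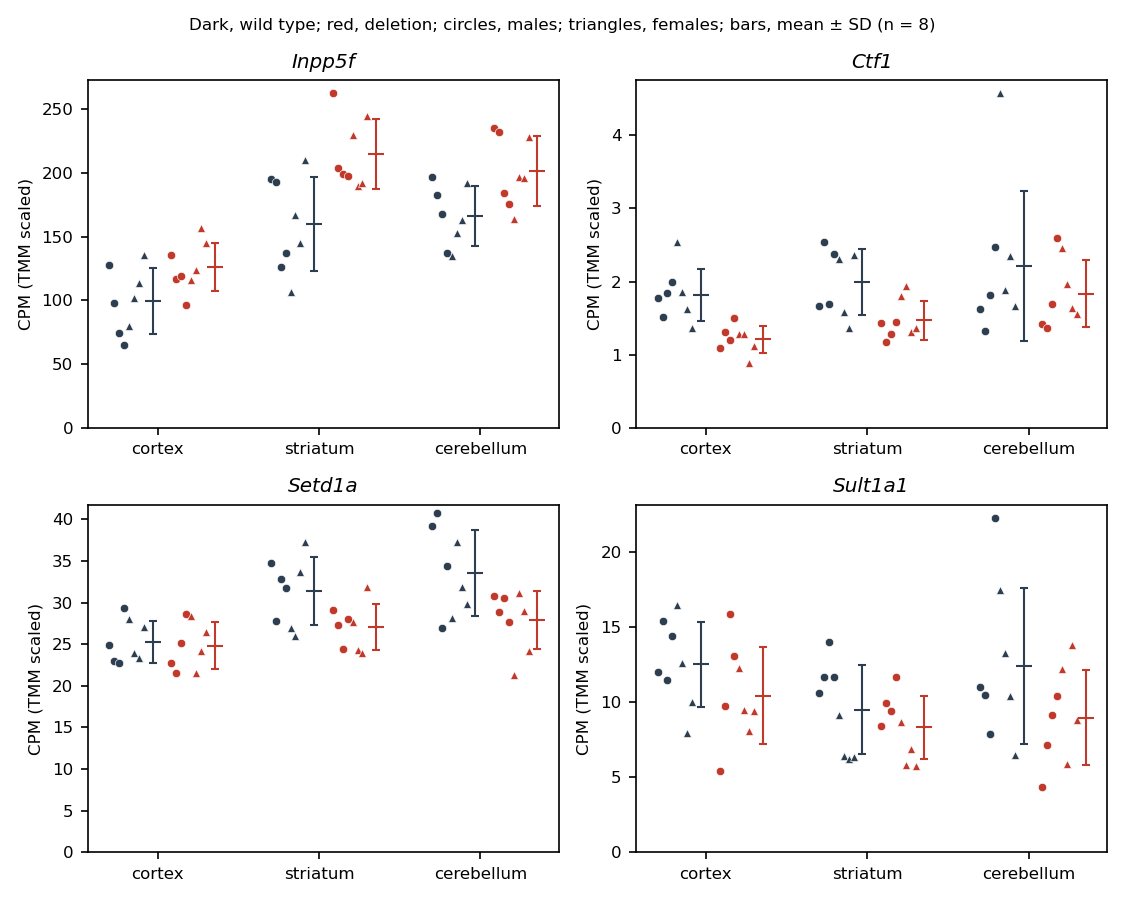
Level of Inpp5f, Ctf1, Setd1a and Sult1a1 in each library (CPM, scaled by TMM factors), by tissue and genotype, with mean ± SD beside 8 points per group; circles are males and triangles females. Inpp5f means are higher in deletion libraries in the 3 tissues (126 against 99.6, 215 against 160 and 201 against 166 CPM), and the ranges overlap.

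The other members are given by role, with the log2 fold change of the summed counts, none of which had an unadjusted p under 0.05. Among 10 chromatin and transcription genes, 9 were below 0. Besides Nupr1 and Setd1a these were Prr14, which ties heterochromatin to the nuclear lamina (0.00), Fbrs (-0.05), the chromatin remodeller Srcap (-0.28), the histone H2B ubiquitin ligase Rnf40 (-0.06), the BAF complex subunit Bcl7c (-0.03), the H4K16 acetyltransferase Kat8 (-0.06) and the focal adhesion coactivator Tgfb1i1 (-0.15). Fbxl19, which binds CpG islands, was at 0.06. The Srcap gene is long, but only 3501 counts were assigned to it over 48 libraries, and it overlaps other annotated genes, so its values are uncertain. All 8 zinc finger genes were between -0.11 and 0.00.

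Of 6 signalling and calcium genes, the lowest after Ctf1 was Sbk1, a brain-enriched kinase, at -0.22 ± 0.16. That value was -0.11 without animal D809, whose cerebellum had 163 CPM against 463 to 644 in the other deletion libraries. Orai3, a store-operated calcium channel subunit, was at -0.12, Nfatc2ip at -0.11, Sh2b1, an adaptor of leptin and insulin receptors, at 0.03, and Atp2a1 at 0.13. Of 6 membrane traffic and lysosome genes, the Rab effector Rabep2 was at -0.11 and the lysosomal lipid transporter Spns1 at -0.08. Cln3 was at -0.01, the membrane repair protein Trim72 at -0.02 and the syntaxin Stx4a at 0.01, beside Inpp5f. The translation and transport genes were Eif3c (-0.05), the mitochondrial elongation factor Tufm (0.08), the stress granule protein Atxn2l (-0.14) and the actin exporter Xpo6 (-0.04).

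The metabolic members besides Sult1a1 stayed between -0.08 and 0.05: Phkg2, the catalytic subunit of phosphorylase kinase (0.02), the bile acid enzyme Hsd3b7 (0.05), the vitamin K recycling enzyme Vkorc1 (-0.08) and the kinase of branched-chain ketoacid dehydrogenase, Bckdk (-0.05). Hsd3b7 was not tested in cortex, where it had 2 to 12 reads per library. Itgam, the microglial integrin CD11b, was at -0.08 ± 0.11 and Apobr at -0.16 ± 0.14. A p-value that misses the threshold does not show that these genes were unaffected.

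The difference of the genotype effect between tissues was tested in a single fit of the 48 libraries, without an animal block. None of the 41 members was called and none had an unadjusted p under 0.05, while among 18531 genes 0 were called (0%) and 256 (1.38%) had an unadjusted p under 0.05. The contrast of Setd1a between cortex and the other tissues is therefore not shown to be a difference between tissues.

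Partners of the members in 8 pathways and complexes were also examined: subunits of COMPASS (with Setd1a), of the SRCAP and KAT8 complexes and of eIF3, phosphorylase kinase, branched-chain amino acid breakdown, the vitamin K cycle and store-operated calcium entry. All listed partners could be tested, and none was called in any of the 4 comparisons. Over all genes 0.128% to 0.138% were called and 2.03% to 3.32% had an unadjusted p under 0.05. The absence of calls therefore does not set the partners apart from other genes. Unadjusted edgeR p-values under 0.05 occurred for 2 genes, both in the SRCAP list: Actr6 in striatum (0.0352) and Actl6a in cerebellum (0.0367). Median log2 fold changes of the lists lay between -0.14 (store-operated calcium entry, 4 genes, striatum) and 0.08 (the same list in cortex). For the 8 COMPASS partners the medians were 0.00 in cortex, -0.03 in striatum and -0.10 in cerebellum, and for the 11 eIF3 subunits they were -0.11, 0.00 and -0.01.

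In wild-type brain the members covered a wide range of levels. Per kilobase of exon, Eif3c was first in cortex (67.6 CPM per kb) and striatum (65.3). Stx4a (37.1) and Atxn2l (33.7) followed in cortex, and Atxn2l (39.2) and Stx4a (29.7) in striatum. In cerebellum Sbk1 was first (138), before Eif3c (67.5) and Atxn2l (42.6). The lowest members were Srcap, Hsd3b7 and Atp2a1 in cortex and striatum, at 0.0977 to 0.253 CPM per kb. In bulk tissue a lower level may come from fewer cells of a type or less RNA per cell, and these cannot be told apart.

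The wild-type tissues differed from each other in several members. Between striatum and cortex, 2 members were higher in striatum (9.95% of all genes were) and 2 lower (background 8.67%). Between cerebellum and cortex, 15 were higher in cerebellum (24.2%) and 4 lower (24.7%). Between cerebellum and striatum, 16 were higher (22.4%) and 3 lower (25.5%). These counts come from the edgeR test of 24 wild-type libraries, without an animal block. With the animal as a block, 4 members were higher (background 15.6%) and 7 lower (14.8%) in striatum than in cortex. Without W813, W814 and W815 in striatum, 1 was higher (10.7%) and 4 were lower (10%). Without a filter on low counts, 1 was higher in striatum than in cortex (5.18%), and 2 were lower in cerebellum than in cortex (15%).

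Sbk1 had the largest log2 difference among the members. It stood at 581 ± 109 CPM (SD, n = 8) in cerebellum, 95.4 ± 7.04 in cortex and 72.7 ± 9.44 in striatum. Cerebellum was 2.61 ± 0.11 log2 units above cortex (edgeR, adjusted p = 3.55e-14) and 2.998 ± 0.12 above striatum (adjusted p = 4.83e-15). It was also lower in striatum than in cortex, by a log2 difference of -0.39 (adjusted p = 0.0126). Itgam went the other way, at 6.09 ± 0.687 CPM in cortex, 4.65 ± 0.999 in striatum and 1.48 ± 0.356 in cerebellum (log2 difference -2.04 ± 0.16 to cortex, adjusted p = 3.23e-10). The summed level of 8 microglial markers was 428 to 501 CPM in wild-type cortex and 139 to 308 in cerebellum. Its part in the Itgam difference was not tested.

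Nupr1 was lower in striatum than in cortex, at 4 ± 2.2 against 14.5 ± 4.43 CPM (log2 difference -1.86 ± 0.35; edgeR, adjusted p = 0.000752). Hsd3b7 was 1.85 ± 0.25 log2 units higher in cerebellum than in cortex (adjusted p = 1.26e-06), though at under 1 CPM in each tissue. Inpp5f was lowest in cortex at 104 ± 26.3 CPM, with striatum at 159 ± 36.2 and cerebellum at 161 ± 22.5. Both exceeded cortex (log2 differences 0.61 and 0.64, adjusted p = 0.00777 and 0.00161) and did not differ beyond their spread from each other (0.03 ± 0.15, adjusted p = 0.913). Of the zinc finger genes, Zfp768, Zfp747 and Zfp764 were higher in cerebellum than in cortex by 0.72, 0.69 and 0.50 log2 units (adjusted p = 0.000105, 2.99e-05 and 0.000375), while Zfp688 did not pass (-0.27, adjusted p = 0.328). Prr14 and Bcl7c were higher in cerebellum by 0.68 and 0.71, and Fbxl19 was lower there, at -0.85 (adjusted p = 5.63e-08, 0.000305 and 3.1e-08). Eif3c did not pass between any pair of tissues (log2 differences -0.05, 0.00 and 0.05).

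**Figure D5:**
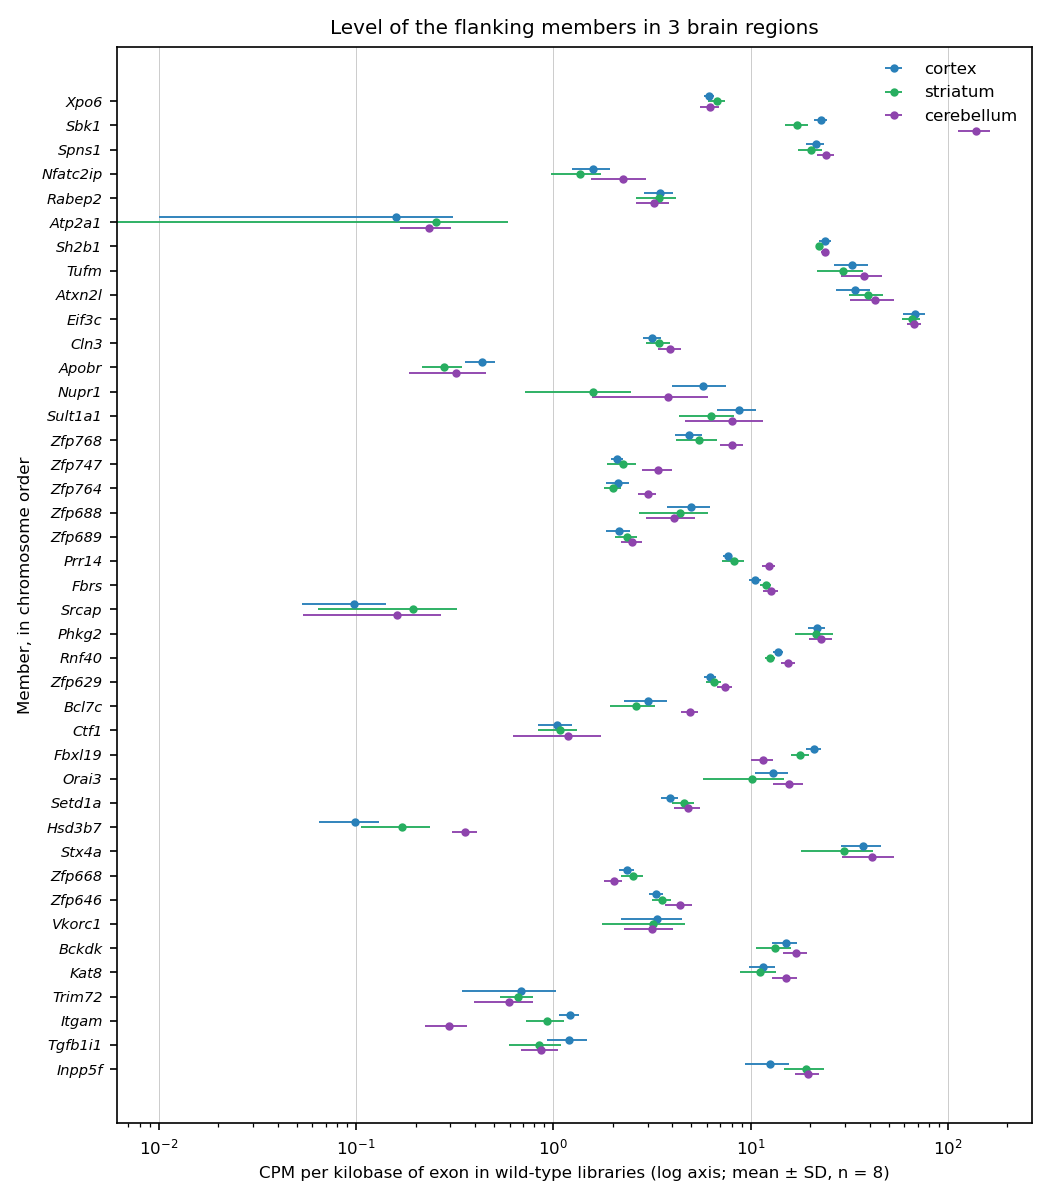
Level of the 41 members in 8 wild-type libraries of each of 3 tissues, in CPM per kilobase of exon on a log axis, as mean ± SD, in chromosome order. Eif3c is high and alike in the 3 tissues, Sbk1 stands apart in cerebellum (138 against 22.6 in cortex and 17.2 in striatum), and Itgam is lowest in cerebellum; the bar of Atp2a1 in striatum leaves the axis because its SD exceeds its mean.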

How the data were processed

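Gene-level read counts of 48 libraries were used as deposited by the authors. The submitters' processing notes name FastQC 0.10.1, STAR 2.4.2a, Picard and SAMtools and the builds GRCm38 and mm8, without their roles; the counting tool, annotation and strand setting are not stated there or in the labels. Of 47161 rows, 92 spike-ins (0.0614 to 1.09% of counts) were left out, and 46574 of 47069 gene identifiers matched GENCODE vM21. Genotypes were compared per tissue and on each animal's summed counts with edgeR 4.0.16 (TMM, filterByExpr, robust quasi-likelihood, sex as covariate, Benjamini-Hochberg over all genes, 0.05). CPM values use TMM factors. The fits were tested on simulated data. Alternatives used RLE factors, DESeq2 1.42.0, limma 3.58.1, no filter, no sex term, each sex, an animal block, and each animal left out. The members and gene lists were chosen with earlier results of these data known. Named genes were members with an unadjusted p under 0.05, the 3 of highest level per length in each tissue, the 3 of largest tissue difference, the 4 nearest on each side and those not testable; others are given by role. Libraries of an animal carry its number; same-animal deviations correlated with medians of 0.428, 0.511 and 0.26 for the 3 tissue pairs, against -0.0758 to -0.00468 for other animals. The p-values of the genotype tests per tissue and on summed counts measure the spread between animals. The main tests between tissues had no animal block, so they treated the 3 libraries of an animal as separate.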

Additional observations from a re-analysis of the deposited data

Results flagged for a closer look

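Among the 102 groups of 8 libraries formed by the 17 named members, 3 tissues and 2 genotypes, 6 held a library whose gap to its nearest neighbour took more of the group's range than Dixon's limit of 0.526 allows; chance gives about 1 in 20. Sbk1 stood at 163 CPM in the cerebellum of deletion animal D809 against 463 to 644 in the other deletion libraries, and Hsd3b7 at 0.246 against 1.07 or more in the same library, which had the lowest summed cerebellar markers of its group (709 CPM, group median 3070). Sbk1 stood at 135 CPM in the striatum of D801 (next 89.6), which had the highest summed striatal markers (6420 CPM). Ctf1 stood at 4.57 CPM in the cerebellum of wild-type W813 (next 2.47), Itgam at 6.94 CPM in the striatum of wild-type W806 (next 5.18), and Zfp747 at 4.19 CPM in the cortex of D812 (next 5.06). The part of the markers in these values was not tested.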

How the results depend on the processing

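No member was called under RLE factors, DESeq2, no filter or no sex term, or with any animal left out. Setd1a in striatum had an unadjusted p-value of 0.0851 without the filter. Inpp5f stayed positive in every alternative (0.24 to 0.51) and Ctf1 negative (-0.693 to -0.03; lowest DESeq2 adjusted p = 0.146, cortex). Members at an unadjusted p under 0.05 numbered 0, 1, 0 and 0 in males and 1, 0, 0 and 1 in females, in cortex, striatum, cerebellum and the sum, where each fit has 4 against 4. Leaving out an animal gave 1 to 3 in cortex (1 without D801, D811, W807, W808 or W813), 2 to 3 in striatum (Setd1a in 4 of 16), 1 to 3 in cerebellum (1 without W806) and 3 to 4 in the sum. It was 1 in striatum without the 2 libraries richest in choroid plexus markers and 1 in cortex with striatal markers as a covariate. With the length slope, added after seeing the data, it was 4, 5, 8 and 11, and 1 member was called in cerebellum and 1 in the sum. The cause was not tested. Apart from the length slope fits, shares over all genes are not given for these alternatives. Their member counts therefore cannot be set against a background.

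With the animal as a replicate block, limma voom gave Inpp5f 0.375 over the 3 tissues (adjusted p = 0.0552), 0 members called and 2 at an unadjusted p under 0.05. Of 18531 genes tested in that fit, 36 were called. The replicate block gave 4 members higher (15.6% of all genes) and 7 lower (14.8%) in striatum than in cortex, and moved no other count by over 1.5 times. Without a filter, 1 was higher in striatum than in cortex (5.18%) and 2 lower in cerebellum than in cortex (15%). Without the 3 striatum libraries richest in cortical markers, 1 was higher (10.7%) and 4 lower (10%) in striatum than in cortex. Low counts limit Ctf1, Apobr, Hsd3b7, Atp2a1 and Srcap.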
